A study of Homo sapiens with 49 samples.

Results

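Of 20624 SIN3A peaks found in Ishikawa cells in stripped media, on chromosomes 1 to 22 and X, 741 (3.59%) were also bound in full media and lay outside H3K4me3. Ishikawa is an endometrial adenocarcinoma line, and the peaks came from chromatin immunoprecipitation followed by sequencing (ChIP-seq). The 741 regions were selected on measured values, namely the peak calls: each overlapped by at least 1 bp a peak of the SIN3A list from full media, which held 16458 regions, and overlapped no peak of the H3K4me3 list of DMSO-treated or of 17β-estradiol (E2)-treated cells. The same selection with H3K4me3 present gave 12615 regions, which served for comparison and are called regions inside H3K4me3.

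The study followed how regulatory elements shape the transcriptional response to estrogen in Ishikawa cells and in T-47D, a breast cancer line. SIN3A was assayed in charcoal-stripped media, from which steroid hormones have been removed, and in full RPMI, both labelled 1 h. The proteins JUN, LSD1, MAX, MYC, RARA and TAF1 were assayed 1 h after DMSO, the vehicle, or E2 at 10 nM, and the histone marks after 8 h. Each Ishikawa list came from 1 library, so no difference below could be set against a spread between replicates and no test was made. Shares carry exact 95% intervals, which cover counting error only, and regions of one list are not replicates of a condition. The other Ishikawa lists set beside the regions held from 136 regions (RARA under DMSO) to 28411 (H3K4me1 under DMSO), apart from those of MYC and H3K36me3 given below. The depth behind the lists is unknown.

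SIN3A is a scaffold protein of a corepressor complex that carries histone deacetylases. It does not recognise DNA itself and is brought to chromatin by sequence-specific factors such as MXD1, which binds E-boxes together with MAX, and REST, a zinc finger repressor that keeps neuronal genes silent outside the nervous system. REST recruits SIN3A through its amino terminus and, through its other end, the CoREST complex, which contains the histone demethylase LSD1. H3K4me3 marks promoters of active or poised genes, whereas H3K4me1 without H3K4me3 is typical of enhancers, where AP-1 factors such as JUN often bind.

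The letters CAGCACC, 2 free bases and GGACAG, which form most of the REST element, occurred within 100 bp of the SIN3A summit in 104 of the 741 regions, 14% (95% interval 11.6 to 16.7%). Among all stripped-media SIN3A peaks 0.776% held these letters. They occurred in 0 of 1482 windows of the same length placed 1000 bp to either side of the summits, an interval reaching 0.249%, and in 0.277% of summits inside H3K4me3. The windows around the strongest of these regions, taken by the lower fold enrichment of both media, are shown because they carry the most frequent long element of the set. Capitals mark the matched letters, and all sequences are 61 bases of the GRCh37 (hg19) reference, read on the strand of the match and lying outside annotated exons.
ZIM2-AS1, chr19:57149468-57149528, plus strand: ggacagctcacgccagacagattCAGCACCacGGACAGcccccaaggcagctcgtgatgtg
NKX1-1, chr4:1404355-1404415, plus strand: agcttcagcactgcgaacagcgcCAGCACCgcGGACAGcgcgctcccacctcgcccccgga
LHX2, chr9:126872736-126872796, plus strand: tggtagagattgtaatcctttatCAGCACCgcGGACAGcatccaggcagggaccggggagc
CELF4, chr18:34850149-34850209, minus strand: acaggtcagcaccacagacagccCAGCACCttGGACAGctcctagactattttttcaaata
DLGAP3, chr1:35390599-35390659, plus strand: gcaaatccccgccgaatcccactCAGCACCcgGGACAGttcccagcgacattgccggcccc

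The first of these windows lay in an intron of the antisense gene ZIM2-AS1, in a SIN3A peak at chr19:57149268-57150015. The next ones lay between genes, closest to the homeobox genes NKX1-1 and LHX2, at 4179 and 95096 bp from their starts. The last ones lay in introns of CELF4, an RNA-binding protein of neurons, and of DLGAP3, a scaffold of the postsynaptic density. Fold enrichment, the ratio of ChIP signal to local background at the summit, was 140 in stripped and 75.6 in full media at ZIM2-AS1, the highest of all members in each list. It was 93.2 and 59.4 near NKX1-1. In the region closest to LHX2 it was 56.2 and 60.3, and at CELF4 48.2 and 49.7, so these regions were slightly higher in full media. DLGAP3 had 60.5 in stripped and 47.5 in full media.

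Both parts of the element, CAGCACC and GGACAG, also occurred farther apart. A distance of 7 to 9 free bases was seen in 27 of the 741 regions, with 14 of them at exactly 8, against 0 of 1482 windows 1000 bp away and 16 of 12615 regions inside H3K4me3. Distances up to 40 other than 2 and 7 to 9 occurred together in 15 of the 741 regions. REST is known to bind such spaced parts as well as the joined form. The strongest members with 8 free bases and a window outside exons lay near the kinase gene NLK and the protocadherin gene PCDHB1.
NLK, chr17:26335683-26335743, plus strand: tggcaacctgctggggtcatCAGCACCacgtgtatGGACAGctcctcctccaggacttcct
PCDHB1, chr5:140420827-140420887, minus strand: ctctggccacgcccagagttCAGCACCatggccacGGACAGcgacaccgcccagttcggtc

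These spaced forms lay at an annotated start site, within 250 bp, in 11 of 27 regions, against 13 of 104 regions with the joined element. The strongest were in an intron of ATP2B2, a plasma membrane calcium pump, with 122 in stripped and 50.2 in full media, and at the start of ADGRB3, an adhesion receptor of the brain, with 40.8 and 42.1. The host gene of a miR-7 precursor, MIR7-3HG, had 103 and 38.4 in an exon. The member farthest from any H3K4me3 peak, chosen here after its value was seen, was also of this kind and lay at the start of CNTNAP5, a neuronal cell adhesion gene, 1786205 bp from the nearest H3K4me3.

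Counting letters without a fixed list led to the same sequence. Among 870 words of 7 letters found in at least 5% of the regions, the largest ratio of the share at summits to that 1000 bp away was for ACAGCGC, with 10.4% against 0.472%. CGCTGTC followed with 14.2% against 0.877%, and CGGACAG with 11.6% against 0.945%. GTGCTGA was found in 27% of the regions and in 3.37% of the distant windows. At summits inside H3K4me3 the shares were 4.88%, 5.32%, 3.62% and 3.71%, in the order named. The contrast with summits inside H3K4me3 was thus smaller than that with distant windows, except for the last word, where both were nearly equal. These words are pieces of the REST element or of its reverse complement. A longer form, TTCAGCACC and GGACAGCGC with 2 free bases between them, was therefore searched, a choice made after seeing the data. At least 14 of its 18 letters were matched in 210 regions, 28.3% (25.1 to 31.7%), against 0.405% of distant windows, 1.31% of regions inside H3K4me3 and 4.88% of the 861 stripped-media SIN3A peaks outside H3K4me3 that full media lacked. All 18 letters were present in 9 regions. Of the 104 regions with the shorter form, 104 passed this looser match.

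Other elements were also more frequent at the summits than 1000 bp away. The E-box CACGTG, bound by MAX and its partners, was found in 78 regions, 10.5% (8.41 to 13%), against 3.24% of distant windows, and 7.72% of all stripped-media SIN3A peaks held it. The regions inside H3K4me3 reached 9.21%. The strongest windows are shown with the E-box in capitals, since MAX was measured in the same cells.
ATP2B2, chr3:10501906-10501966, plus strand: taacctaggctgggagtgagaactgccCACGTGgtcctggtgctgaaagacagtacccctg
TMEM121, chr14:106267672-106267732, plus strand: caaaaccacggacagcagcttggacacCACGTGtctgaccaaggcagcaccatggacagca
AP3D1, chr19:2151864-2151924, plus strand: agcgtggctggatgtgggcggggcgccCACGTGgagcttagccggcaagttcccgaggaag

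The first lay in the ATP2B2 intron named above. The next lay between genes, 274254 bp from the start of TMEM121, its nearest protein-coding start. It had fold enrichment of 67.3 in stripped and 36.6 in full media, and its window also held the REST element. The last lay in AP3D1, a subunit of a vesicle adaptor complex, 322 bp from its start, with 51.4 and 35.8. MAX was bound at the ATP2B2 region with a fold enrichment of 26.3 under DMSO and 23.8 under E2.

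The AP-1 element TGANTCA was found in 58 regions, 7.83% (6 to 10%), against 4.86% of distant windows and 4.34% of all stripped-media SIN3A peaks. The share in regions inside H3K4me3 was 3.65% and in stripped-media SIN3A peaks outside H3K4me3 that full media lacked 7.55%. The strongest windows follow, with the letters of the element in capitals.
DLGAP4, chr20:35012670-35012730, plus strand: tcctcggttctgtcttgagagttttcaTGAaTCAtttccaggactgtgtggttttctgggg
CACNA2D2, chr3:50563563-50563623, plus strand: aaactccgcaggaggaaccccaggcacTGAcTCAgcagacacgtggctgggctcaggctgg
LIN28A, chr1:26735153-26735213, plus strand: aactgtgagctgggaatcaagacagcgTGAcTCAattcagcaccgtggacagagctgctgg

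DLGAP4, a relative of DLGAP3, held the first in an intron, with SIN3A at 36.4 in stripped and 41.7 in full media. The AP-1 element there lay 90 bp from the SIN3A summit, and the region matched 16 letters of the longer REST form. The second lay near CACNA2D2, a calcium channel subunit gene, with 34 and 33.9. This region matched 14 letters of the longer form and also held an E-box, with MAX at 15.6 under DMSO and 13.5 under E2. The third lay near LIN28A, which encodes a regulator of let-7 miRNAs, with 55.6 and 32.3, and its window also held the REST element. JUN was called at the DLGAP4 region under E2, with 10.1, and under neither treatment near CACNA2D2 and LIN28A.

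The core of the CTCF element, CCA, AG and GGC separated by 2 free bases each, was found in 43 regions, 5.8% (4.23 to 7.74%), against 1.21% of distant windows and 2.73% of all stripped-media SIN3A peaks. It was found in 8.13% of the stripped-media SIN3A peaks outside H3K4me3 that full media lacked. The windows shown lay outside exons, at PHF21B, TBL1X and TTBK2, and are not all among the strongest. The PHF21B region also held the REST element, within 20 bp of its SIN3A summit. TBL1X is itself a subunit of another corepressor complex.
PHF21B, chr22:45371661-45371721, plus strand: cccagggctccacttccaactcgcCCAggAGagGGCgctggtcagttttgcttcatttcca
TBL1X, chrX:9431215-9431275, plus strand: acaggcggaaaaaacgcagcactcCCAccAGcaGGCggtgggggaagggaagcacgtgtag
TTBK2, chr15:43051511-43051571, minus strand: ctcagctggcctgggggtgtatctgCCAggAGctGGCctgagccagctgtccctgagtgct

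The GC box GGGCGG of SP and KLF factors, a short word common in CpG-rich DNA, was found in 24% of the regions, against 8.84% of distant windows and 46.3% of regions inside H3K4me3. The GC content was 58.7% at the summits, 50.2% in distant windows and 65.3% inside H3K4me3. The progesterone or glucocorticoid receptor element, GNACA and TGTNC with 3 free bases, was found in 7 regions, 0.945% (0.381 to 1.94%), against 0.0675% of distant windows. The strongest lay in an intron of CCND3, a D-type cyclin gene, with 28.9 in stripped and 29.9 in full media. A full estrogen response element, GGTCA and TGACC with 3 free bases, was found in 1 region, in an intron of the homeobox gene MEIS1. The GATA word AGATAA, with 2.56% against 8.7%, and the forkhead word TNTTTAC, with 5.53% against 8.7%, were less frequent at the summits than 1000 bp away. The ETS word CCGGAAGT was found in 0.405% of the regions and in 5.22% of those inside H3K4me3. All motifs were searched on both strands, and a match is a description of the sequence and not evidence that the factor was bound.

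For comparison, among 20098 windows of the same length at starts of protein-coding genes the REST element was found in 0.0348%, the E-box in 5.88%, the CTCF core in 1.85%, the AP-1 element in 3.91% and the GC box in 46.7%. Some regions held more than 1 of these elements. Of the 104 regions with the REST element, 7 also held an E-box, 7 the CTCF core and 4 the AP-1 element. Of the 78 regions with an E-box, 10 also held the AP-1 element and 6 the CTCF core, and 1 region held both CTCF core and AP-1 element. None of the REST, E-box, CTCF and AP-1 elements was found in 491 of the 741 regions.

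**Figure D1:**
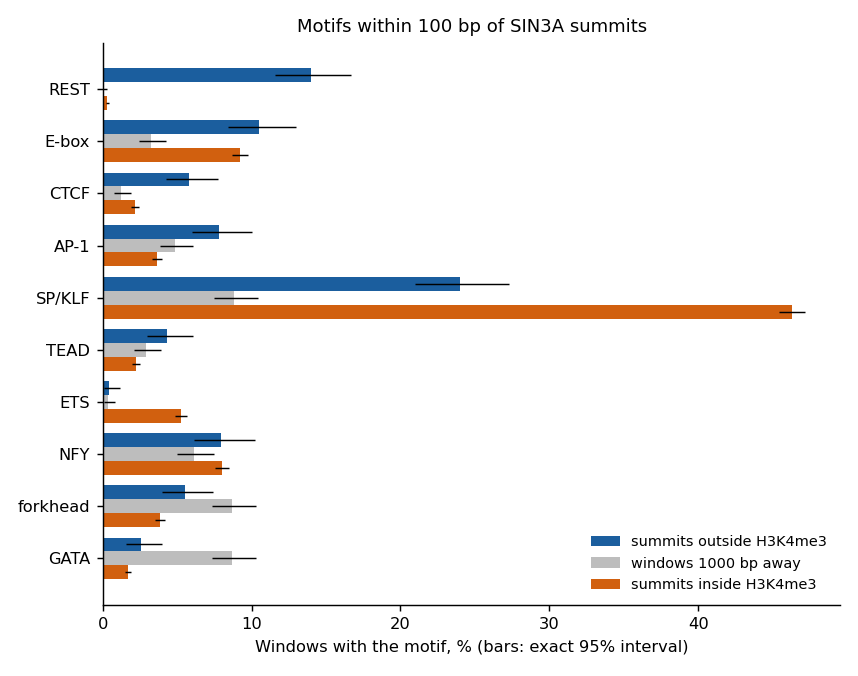
Share of windows of 100 bp either side, in %, that hold each of 10 motifs, for the 741 SIN3A summits outside H3K4me3, 1482 windows 1000 bp away and 12615 SIN3A summits inside H3K4me3. Bars show exact 95% intervals. The REST element stands at 14% of the summits outside H3K4me3 and at 0.277% of those inside.

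The REST element was centred on the SIN3A summits. Its median distance to the summit was 20 bp, and 53.8% of the 104 regions had it within 20 bp and 84.6% within 50 bp. The E-box, at a median of 34 bp, had 33.3% within 20 bp. The AP-1 element, at a median of 42 bp, had 25.9% within 20 bp, and the CTCF core, at a median of 41.5 bp, had 27.9%.

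**Figure D2:**
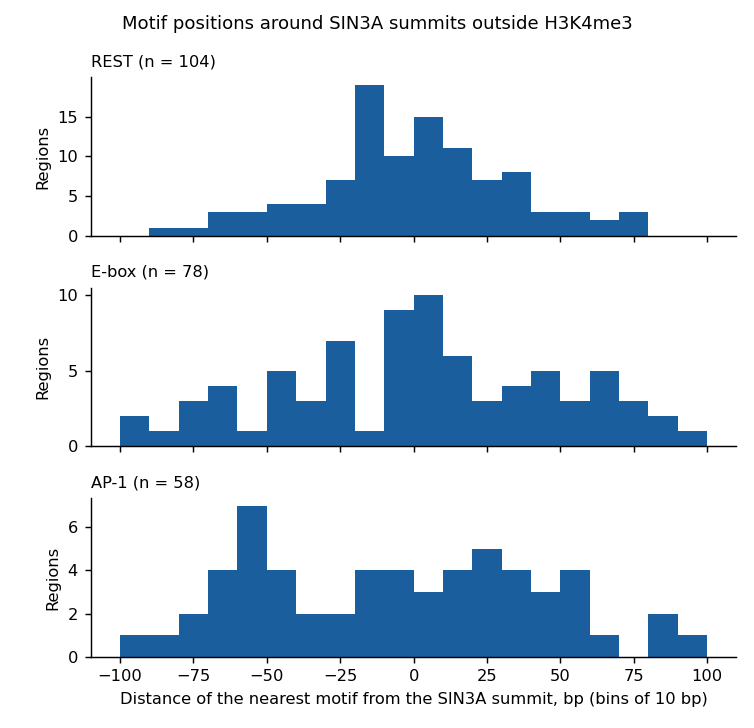
Number of SIN3A regions outside H3K4me3 by the distance, in bp along the genome, from the SIN3A summit to the nearest REST element (n = 104), E-box (n = 78) or AP-1 element (n = 58), in bins of 10 bp. Of the REST elements 84.6% lie within 50 bp of the summit, and the AP-1 elements are spread more evenly.

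SIN3A binding at the 741 regions ranged in fold enrichment from 5.54 to 140 in stripped media, with a median of 15.1, and from 3.4 to 75.6 in full media, with a median of 11.9. Regions inside H3K4me3 had medians of 23 and 12.3, so the sets differed more in stripped than in full media. The median log2 ratio of full over stripped media was -0.38 outside and -0.88 inside H3K4me3, and 25% of the 741 regions against 3.28% of those inside were higher in full media. The regions were also narrower, with a median width of 326 bp against 776 bp. The summits of both media lay within 50 bp of each other at 69.1% of the 741 regions and at 47.6% of those inside H3K4me3. Since the SIN3A lists chose the regions, these values are a description.

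Regions with a REST element had median fold enrichments of 18.5 in stripped and 16.1 in full media, against 14.8 and 11.4 in the other 637. Of the 104, 33 were higher in full media. The element was more frequent at higher SIN3A signal in full media. It was found in 4.95% of the 182 regions below a fold enrichment of 9.37, in 6.38% of those up to 11.9, in 14.2% of those up to 15.9 and in 30.3% of the 188 regions from 15.9 upwards. In the same bins of full-media signal, regions inside H3K4me3 held it in 0.0714%, 0.0964%, 0.157% and 0.712%. The share with an E-box ran from 6.38 to 13.1% over these bins without a steady order.

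**Figure D3:**
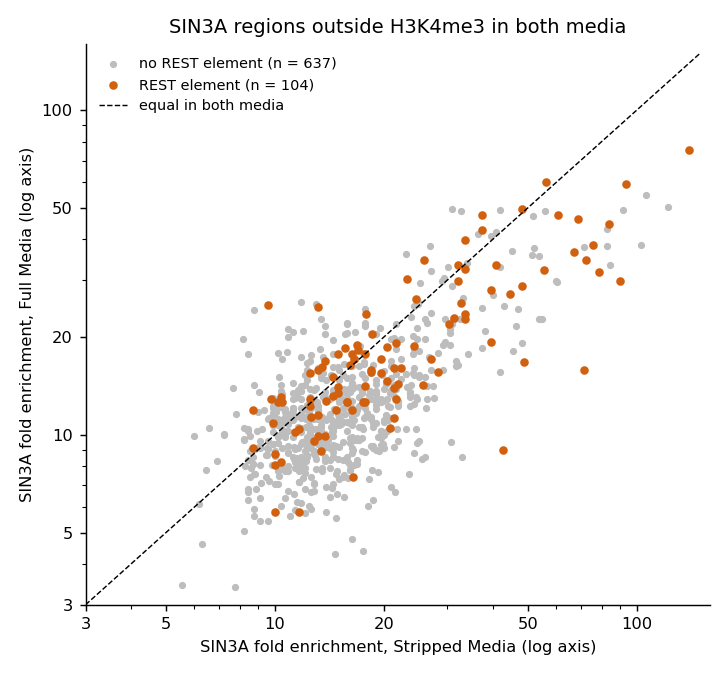
SIN3A fold enrichment of each of the 741 regions in stripped media and in full media, both on log axes, with the 104 regions holding a REST element in orange and the dashed line at equal values. Orange points overlap the others but are shifted upwards, with medians of 18.5 and 16.1 against 14.8 and 11.4. The highest orange point is at 140 and 75.6, and most regions lie under the line.

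Among the 10 regions with the highest signal, 5 held the REST element and are shown above. The others were a region between genes nearest to UBAC1, a subunit of a ubiquitin ligase complex, with 106 in stripped and 54.8 in full media, and the ATP2B2 intron. Introns of XKR6, with 91.5 and 49.3, and of the ubiquitin ligase gene RNF144A, with 55.9 and 48.8, followed, as did a region nearest to HERC1, another ubiquitin ligase gene, with 51.6 and 47.4. The regions near UBAC1 and in XKR6 matched 15 of the 18 letters of the longer REST form. LSD1 under E2 was called at all 10, with fold enrichments from 10.1 near HERC1 to 39.8 near NKX1-1. It was called under E2 at 58% of all stripped-media SIN3A peaks. Among the 188 regions from a full-media fold enrichment of 15.9 upwards the share was 68.6%, against 69.9% inside H3K4me3. Under DMSO LSD1 was not called at the regions near LHX2 and HERC1 or in RNF144A, CELF4 and DLGAP3.

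The regions were mostly far from annotated promoters. In GENCODE, 111 regions, 15% (12.5 to 17.8%), had their summit within 250 bp of an annotated start site, against 71% of regions inside H3K4me3. Introns of protein-coding genes held 303 regions (40.9%), and 207 (27.9%) lay between genes. Introns of noncoding genes held 56, coding exons 26, other exons of coding genes 21 and exons of noncoding genes 17. The nearest start of a protein-coding gene was a median of 7223 bp away, against 122 bp inside H3K4me3, and 74 regions (9.99%) lay more than 100000 bp from one. The stripped-media SIN3A peaks outside H3K4me3 that full media lacked had nearly the same places, with 14.8% at start sites and 30% between genes. The regions were found on every chromosome, with 88 on chromosome 1, 67 on chromosome 19 and 5 on X.

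At start sites, the strongest regions were at ADGRB3, at FAM222A with 82.9 in stripped and 38.3 in full media, and at TPH2, the enzyme of serotonin synthesis in neurons, with 52.1 and 37.7. In exons, the strongest were at PRB2, a salivary proline-rich protein gene, with 83 and 43.1, at MIR7-3HG, and in the coding sequence of the mucin gene MUC5B, with 33.5 and 39.9. The 111 start-site regions had TAF1, a subunit of the general transcription factor TFIID, under DMSO in 42 cases, 37.8% (28.8 to 47.5%), against 27.9% of the other regions and 94.9% of regions inside H3K4me3.

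The nearest H3K4me3 peak was a median of 10641 bp away, with quartiles at 1828 and 37089 bp. Just inside the rule, the members in an intron of HS6ST1 and nearest to FOXI1 and FERMT3 lay 1, 2 and 3 bp from an H3K4me3 peak. Their SIN3A fold enrichments in stripped and full media were 17.1 and 16.3 at HS6ST1, 12.1 and 15.3 at FOXI1, and 15.8 and 11 at FERMT3. Just outside the rule, a region in LINC02044 overlapped the DMSO list of H3K4me3 by 3 bp, with 15.7 and 9.07. A region nearest to RD3 overlapped the E2 list by 3 bp, with 15.7 and 11.4. A region in an intron of the noncoding gene ENSG00000237720 overlapped the DMSO list by 1 bp, with 10.3 and 8.5.

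H3K4me1 covered a minority of the regions. Under DMSO 205 regions, 27.7% (24.5 to 31%), overlapped an H3K4me1 peak, against 20.1% of all stripped-media SIN3A peaks and 14.7% of those inside H3K4me3. Under E2 the number was 167, 22.5% (19.6 to 25.7%), against 17.5% of all. Within 1000 bp of an H3K4me1 peak lay 42% of the regions under DMSO, against 29.3% of all stripped-media SIN3A peaks and 22.2% inside H3K4me3. The stripped-media SIN3A peaks outside H3K4me3 that full media lacked had H3K4me1 under DMSO more often, at 38.1%. Of these, 53.5% lay within 1000 bp of it. The ratio of E2 to DMSO numbers was 0.815, near that of the whole lists at 0.794, and the median log2 ratio of fold enrichment over the 135 regions in both lists was -0.03.

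JUN was called at 78 regions under DMSO, 10.5% (8.41 to 13%), and at 327 under E2, 44.1% (40.5 to 47.8%). Among all stripped-media SIN3A peaks the shares were 9.06% and 46.7%, and inside H3K4me3 10.3% and 57.6%, so at neither treatment were the members far above the background. All 78 were in both lists, and JUN fold enrichment was higher under E2 at 74 of them, with a median log2 ratio of 0.91. The number under E2 was 4.19 times that under DMSO, while the whole JUN list was 4.87 times as long, with 18310 against 3763 regions. JUN summits under E2 lay a median of 40 bp from the SIN3A summit, against 73 bp inside H3K4me3.

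LSD1 was called at 217 regions under DMSO, 29.3% (26 to 32.7%), and at 439 under E2, 59.2% (55.6 to 62.8%). The background shares were 26.2% and 58%, and those inside H3K4me3 31.4% and 66.4%. Both lists held 189 regions, 250 were in the E2 list only and 28 in the DMSO list only. The number under E2 was 2.02 times that under DMSO, against 2.13 times for the whole list. At the 189 regions in both lists LSD1 fold enrichment was higher under E2 in 150, with a median log2 ratio of 0.51. The summits of LSD1 under E2 lay a median of 33 bp from those of SIN3A, with 69.7% within 50 bp, against 88 bp and 34% inside H3K4me3. SIN3A peaks inside H3K4me3 were wider, as given above, and the part of width in this difference was not tested.

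**Figure D4:**
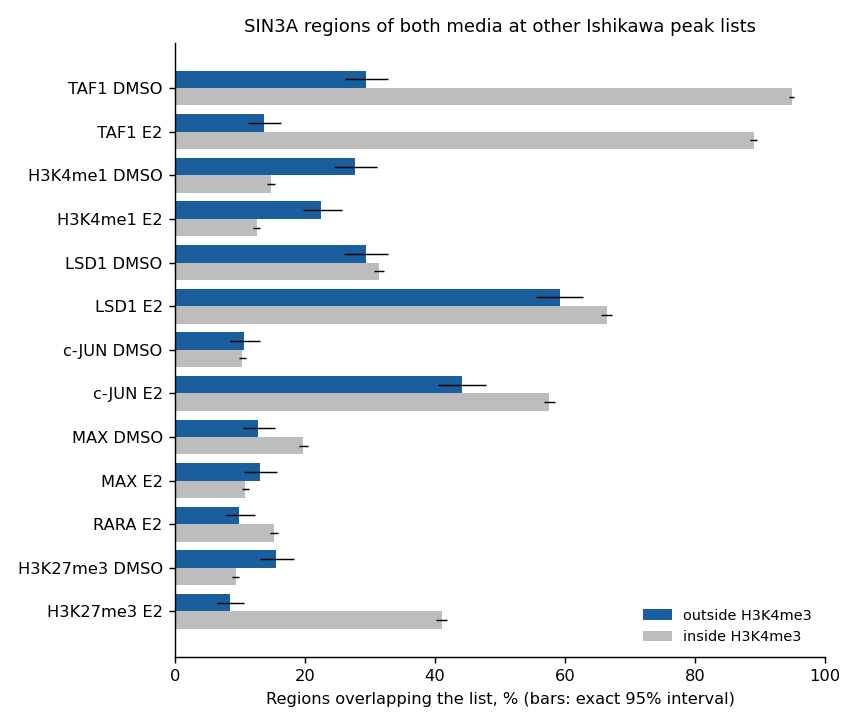
Share, in %, of the 741 SIN3A regions outside H3K4me3 and of the 12615 inside it that overlap each other Ishikawa peak list, with exact 95% intervals as bars. TAF1 under E2 differs most, at 13.6% against 89.1%, and LSD1 and JUN under DMSO differ little.

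TAF1 was called at 29.4% (26.2 to 32.8%) of the regions under DMSO and at 13.6% (11.2 to 16.3%) under E2, against 82.3% and 71.7% of all stripped-media SIN3A peaks. The number under E2 was 0.463 times that under DMSO, whereas the ratio was 0.855 for the whole TAF1 list and 0.939 for the regions inside H3K4me3. At regions in both TAF1 lists the median log2 ratio of E2 over DMSO was similar, at -0.34 for the members and -0.39 inside H3K4me3. TAF1 peaks under DMSO had a median fold enrichment of 9.13 at the members and 19.2 inside H3K4me3. The stripped-media SIN3A peaks outside H3K4me3 that full media lacked also fell, from 22.3% under DMSO to 10.1% under E2. MAX was called at 12.7% and 13% of the regions under DMSO and E2, against a background of 14% and 8.03%. The number at the 741 regions was 94 under DMSO and 96 under E2, while the whole MAX list under E2 was 0.594 times as long. RARA, the retinoic acid receptor alpha, was called at 4 regions under DMSO and at 73, 9.85% (7.8 to 12.2%), under E2, against a background of 11% under E2.

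H3K27me3, the mark of Polycomb repression, was called at 115 regions under DMSO, 15.5% (13 to 18.3%), and at 62 under E2, 8.37% (6.47 to 10.6%), while the backgrounds were 8.36% and 29.9%. The number at the 741 regions under E2 was 0.539 times that under DMSO, whereas the whole list was 3.19 times as long and the number at regions inside H3K4me3 4.41 times as high. Both lists held 29 of the 741 regions, 33 were in the E2 list only and 86 in the DMSO list only. At the 29 regions in both lists H3K27me3 fold enrichment was higher under E2 in 26, with a median log2 ratio of 0.90. The fall in number was thus not a fall in signal at the shared regions. The DMSO peaks of H3K27me3 had their summit within 50 bp of the SIN3A summit at 68.7% of the 115 regions, against 46.2% inside H3K4me3. The part of the SIN3A peak width in this difference was not tested either. MYC was called at 1 region under DMSO and 0 under E2 in lists of 50 and 2 regions, and H3K36me3 at 0 in a list of 114, which allow no statement on either.

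Counted over 9 other Ishikawa targets with both treatments joined, 139 regions (18.8%) overlapped no other target and 200 (27%) a single one. LSD1 was the sole other target at 118 regions, H3K4me1 at 44 and TAF1 at 14. The 9 targets include MYC and H3K36me3, whose lists are short. No such count over all stripped-media SIN3A peaks is given here. At the other end, 3 regions carried 7 targets, near LIMK1, which encodes a kinase of the actin cytoskeleton, in an intron of FAM227A and in an intron of a noncoding gene on chromosome 7. At FAM227A, JUN had a fold enrichment of 21.9 under DMSO and 50.5 under E2. SIN3A at these regions was at 10.7, 17.4 and 21.9 in stripped media, and from 9.59 to 9.84 in full media, below the median of 11.9.

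The regions divided by the element at their summit differed in what else was called there. None of the 104 regions with a REST element overlapped H3K4me1 under DMSO or E2 or JUN under DMSO, for each of which the interval reaches 3.48%. In the other 637 regions, H3K4me1 under DMSO was called at 32.2% (28.6 to 36%) and JUN under DMSO at 12.2%. JUN under E2 was called at 8 of the 104, 7.69% (3.38 to 14.6%), against 50.1% of the others. TAF1 under DMSO was called at 9.62% (4.71 to 17%) against 32.7%. LSD1 was called at 17 of the 104 under DMSO, 16.3% (9.82 to 24.9%), and at 65 under E2, 62.5% (52.5 to 71.8%), against 31.4% and 58.7% of the others. That is 3.82 times as many under E2, where the whole LSD1 list was 2.13 times as long, and all 17 regions in both lists had a higher LSD1 fold enrichment under E2, with a median log2 ratio of 1.09. No other target at all was called at 38 of the 104 regions. Among the 210 regions with the longer REST form, H3K4me1 was called at 5 under DMSO and at 4 under E2. JUN under DMSO was called at 0 of the 210.

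Regions with an E-box had MAX under DMSO in 35 of 78 cases, 44.9% (33.6 to 56.6%), against 8.9% (6.84 to 11.3%) of the 663 without one. Under E2 the shares were 38.5% and 9.95%. H3K4me1 under DMSO was called at 38.5% of the E-box regions and LSD1 under DMSO at 16.7%, against 26.4% and 30.8% of those without one. Regions with an AP-1 element had JUN under E2 in 47 of 58 cases, 81% (68.6 to 90.1%), against 41% (37.3 to 44.8%) of the 683 without one, and under DMSO in 27.6% against 9.08%. LSD1 under DMSO was called at 51.7% (38.2 to 65%) of the AP-1 regions, against 27.4% of those without the element, and LSD1 under E2 at 72.4% (59.1 to 83.3%) against 58.1%. The regions with the CTCF core had H3K4me1 at 30.2% and TAF1 at 41.9% (27 to 57.9%) under DMSO, against 27.5% and 28.7% (25.3 to 32.2%) of the 698 without it.

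**Figure D5:**
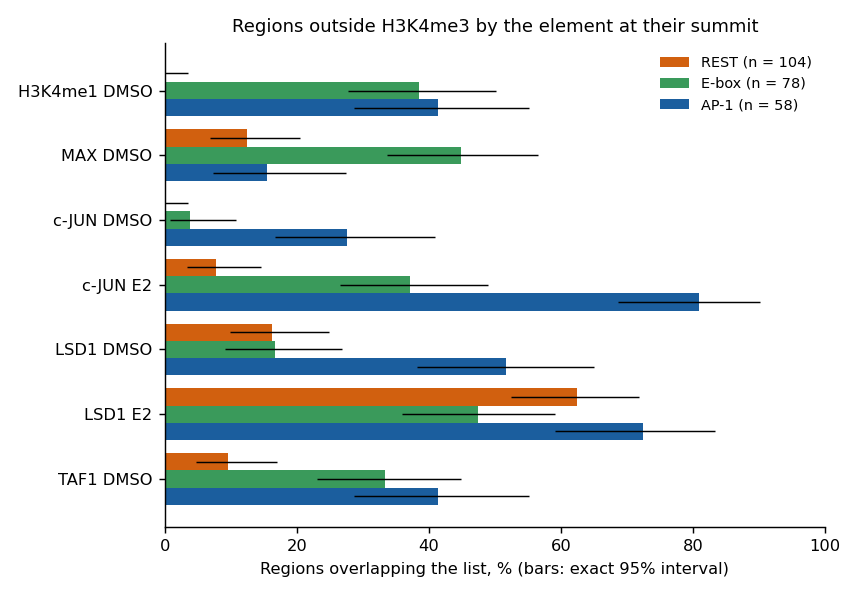
Share, in %, of SIN3A regions outside H3K4me3 that overlap 7 other Ishikawa lists, for regions with a REST element (n = 104), an E-box (n = 78) or an AP-1 element (n = 58), with exact 95% intervals. No REST region is at H3K4me1 under DMSO, LSD1 under E2 is at 62.5% of REST and 72.4% of AP-1 regions, E-box regions lead for MAX at 44.9%, and AP-1 regions lead for JUN under E2 at 81%.

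In T-47D cells, whose lists the rule did not use, SIN3A in full media was called at 48 of the 741 regions, 6.48% (4.81 to 8.5%), against 4.45% (4.09 to 4.82%) of regions inside H3K4me3 and 2.99% of all stripped-media peaks. In stripped media it was called at 14, 1.89% (1.04 to 3.15%), in a list of 70 regions. The shares were 0.349% inside H3K4me3 and 0.291% of all stripped-media peaks. Regions with a REST element were bound in T-47D full media in 19 of 104 cases, 18.3% (11.4 to 27.1%), against 4.55% (3.07 to 6.47%) of the others. H3K4me3 of T-47D under DMSO was called at 20 regions, 2.7%, against 83.7% inside Ishikawa H3K4me3, so nearly all of the regions were outside the mark in that line too. JUN of T-47D was called at 30.2% of the regions under DMSO and 23.5% under E2, below the 67.9% and 70.6% of all stripped-media peaks. H3K4me1 of T-47D was called at 2.43% of the regions under DMSO, against 1.54% of all.

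Several genes held more than 1 region. NOS1AP, an adaptor of neuronal nitric oxide synthase, held 4 in its introns, with fold enrichments from 12.1 to 24.8 in stripped and from 9.59 to 21.3 in full media. H3K4me1, LSD1 and JUN were all called at 2 of the 4 and no other target at the remaining ones. SLC6A6, the taurine transporter, held 3, of which 1 had 8.75 in stripped and 24.2 in full media. AP3D1, APOBEC3B and ATP2B2 were among the genes that held 2.

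Of 20090 protein-coding genes, 8.21% had a region in the gene body or within 50 kb, and 1.42% had one with a REST element. Among 22 neuronal genes known to be repressed through REST, 4 had a region, 18.2%, and 3 had one with the element. The region at the start of GRIN1, an NMDA receptor subunit, matched all 18 letters of the longer form and had SIN3A at 19.7 in stripped and 15.5 in full media. L1CAM, a neural cell adhesion molecule, had 39.6 and 27.9 in its body, and UNC13A, which primes synaptic vesicles, 17.8 and 12.6 in an intron. No other target was called at GRIN1 or L1CAM, and LSD1 and JUN were called at UNC13A. The fourth, at the start of the glycine receptor gene GLRA1, matched 16 of the 18 letters and had 40.2 and 26.9, with LSD1 and H3K27me3.

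Among 11 AP-1 subunit genes, 3 had a region within 50 kb, 27.3%. JUND had one 149 bp from the gene, with 15.1 in stripped and 11.4 in full media and with LSD1, TAF1 and JUN, and 2 more at 40210 and 46359 bp. JUNB had 2, in introns of the neighbouring HOOK2, the stronger with a REST element and 75.6 and 38.5. FOS had 1 at 29212 bp, with 10.9 and 8.83. Of 25 known estrogen-induced genes 4 (16%) had a region, and none in the gene body. A region 27217 bp from GREB1, at the start of the neurotensin receptor gene NTSR2, had 27 in stripped and 32.1 in full media. TFF1 and TFF3 shared 1 region nearest to TFF2, with 15.4 and 15.3 and with LSD1 and JUN, and FOS was the last of the 4.

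The other lists held few regions. ESR1, the estrogen receptor alpha gene, was the only one of 21 Mullerian and endometrial transcription factor genes with a region, in an exon outside the coding sequence, with 12.3 in stripped and 9.31 in full media and with LSD1, TAF1 and JUN. Of 25 SIN3 complex genes 1 had a region, RBBP7, a histone-binding subunit, at 27173 bp. Of 23 TEAD and YAP target genes 1 had any, the kinase gene NUAK2, with 2 at least 26794 bp away. Of 20 epithelial junction and keratin genes 1 had any, the tight junction gene CLDN3, also with 2. Each of these shares of 4 to 5% rests on 1 gene. A difference from the 8.21% of all protein-coding genes was not tested.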

How the data were processed

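ChIP-seq peak lists of 45 of 49 samples were used, and the other 4, input libraries, were not used here. Per the submitters' processing notes, reads were aligned to hg19 with bowtie 1.1.2 and peaks called with MACS2 2.1.0.20140616, in each library. The authors deposited for each peak a fold enrichment (a ratio to local background), a −log10 p-value, a −log10 q-value and a score. In both SIN3A lists the lowest −log10 p-value was 10.1, stricter than a q-value cutoff alone, and a list's length depends on its depth, which is unknown.

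Groups came from the sample labels. Peaks sharing at least 1 bp counted as overlapping, computed with Python 3.11.15, pandas 2.3.3, scipy 1.17.1 and pysam 0.24.0. Places and starts came from GENCODE 44 on GRCh37, whose chromosomes hold every peak (0 beyond an end). A region was called after the gene at its summit or, between genes, the nearest start. For 20 motifs, both strands of 100 bp either side of the summit were searched, and motif finding was tested on simulated data. All shares have exact (Clopper-Pearson) intervals. No statistical test was made, since no group of Ishikawa had more than 1 library.

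Named regions were the 10 members with the highest lower fold enrichment of both media, the 3 highest of each place, those with the most other targets, genes with the most members, the 3 highest for each motif at least 1.5 times as frequent as 1000 bp away, 3 on either side of the rule, and 7 fixed gene lists. Not every one is named in the text. The windows printed as sequence were taken by signal outside exons, with some regions passed over, which adds NLK, PCDHB1, TBL1X and TTBK2. The members and lists were chosen with earlier results of these data known. Other thresholds, overlaps, distances and windows were tried.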

Additional observations from a re-analysis of the deposited data

Results flagged for a closer look

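In JUN the share of the 741 regions moved in opposite directions with E2 in Ishikawa and T-47D cells. In RARA the change of the share also differed between the lines. Each list was 1 library and neither difference was tested. JUN went from 10.5 to 44.1% of the regions in Ishikawa and from 30.2 to 23.5% in T-47D, a difference in change of 40.4 percentage points. The whole lists held 3763 and 18310 regions in Ishikawa and 28702 and 24883 in T-47D, and the shares of all stripped-media SIN3A peaks were 9.06 and 46.7% in Ishikawa and 67.9 and 70.6% in T-47D. RARA went from 0.54 to 9.85% in Ishikawa and from 1.35 to 0.945% in T-47D, a difference of 9.72 points. The T-47D shares are 10 and 7 regions, with overlapping intervals, and allow no statement on a direction in that line. The RARA lists held 136 and 2881 regions in Ishikawa and 838 and 750 in T-47D, and over all stripped-media peaks the share likewise went from 0.587 to 11% and from 3.53 to 3.31%. For MYC the same difference was -0.675 points, with 0.135 and 0% in Ishikawa, which is 1 region against 0 in lists of 50 and 2 regions and allows no statement on a direction, and 1.48 and 2.02% in T-47D.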

How the results depend on the processing

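Of 54 recomputed values 15 moved, which for the number of regions means by more than 1.5 times and for the others beyond the 95% interval of the value reported, 39 did not, and 0 changed sign. With a fold enrichment of at least 10 in both SIN3A lists, 479 regions remained of 741, with JUN at 7.31% under DMSO and 37.6% under E2, a REST element in 18.4% and a median log2 ratio of full over stripped media of -0.25. With no H3K4me3 within 1000 bp, 11.8% lay at start sites, JUN under DMSO was at 8.03% and the REST element in 16.9%. With the DMSO H3K4me3 list alone, H3K4me1 under DMSO was at 32.4%, and with 200 bp around the summit in place of the whole peak at 21.2%. Start sites of 1000 bp either side held 28.7%. Within 50 bp of the summit the shares were 4.32% for AP-1, 3.37% for CTCF and 11.5% for REST. The longer REST form, added after seeing the data, gave 28.3%. Both shares of LSD1 stayed within their intervals under the alternatives tried. No paired analysis was possible because no result comes from a test and each Ishikawa group holds 1 library. Since the depth is unknown, a region missing from a list is not shown to be unbound.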

Other observations

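RNA polymerase II, measured in T-47D cells alone and in no comparison above, was called at 31.4% and 7.83% of the 741 regions in the DMSO replicates and at 29.8% and 12.4% in the E2 replicates. The replicates of a treatment thus differed by more than the treatments. In regions inside H3K4me3 the shares were 88.2% and 64.4% under DMSO and 84.5% and 72.3% under E2.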
